A study of Homo sapiens with 10 samples.

Results

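The genes described here are 10 non-coding host genes of small nucleolar RNAs (snoRNAs): SNHG1, SNHG5, SNHG6, SNHG7, SNHG8, SNHG12, SNHG16, GAS5, ZFAS1 and EPB41L4A-AS1. The rule that picks them uses names and no measured value, though it was written with earlier results of these data known, and each name matched 1 row of a count table with 58721 gene rows. All 10 were kept among the 17045 genes with enough reads to test. The samples are cultures of a human lymphoma line, labelled U2392, grown from single edited cells, and their poly(A) RNA was sequenced. The 6 wild-type samples came from clones edited with a template that kept the wild-type DDX3X sequence, and the 4 R475C samples from clones edited with a template that carried the R475C change. Both groups had received a plasmid with Cas9 and a guide RNA, and both templates held silent changes at the PAM and at a SpeI site, so the controls carry the editing too. Whether each replicate is its own clone is not stated in the labels, so the spread behind every p-value is that of these samples and may be technical.

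A snoRNA guides the chemical modification of ribosomal RNA. In human cells most snoRNAs are cut out of introns, and the spliced exons of a non-coding host are a by-product that is exported, engaged by ribosomes on short open reading frames and then removed by nonsense-mediated decay (NMD), the pathway that degrades transcripts on which translation stops too early. The steady level of such a spliced transcript depends on both its transcription and its decay. Many hosts are also TOP genes, whose transcripts open with a run of pyrimidines through which growth signals control translation. DDX3X is a DEAD-box RNA helicase that takes part in the start of translation.

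The starts of the hosts are shown because TOP transcripts are defined by the bases at the start; the members differ there, and no start feature is common to all. RefSeq start windows (GRCh38.p14) were found for 9 of the 10 members, and in 8 of these the RefSeq start lay within 5 bases of a transcript start in GENCODE release 29. Each line gives the 50 bases before and the 50 bases from the start on, 5′ to 3′ on the strand of the gene. Capitals mark TATAA, where it occurs between 45 and 15 bases before the start, and the longest run of C and T that touches the 5 bases on either side of the start, whether or not it is transcribed.
SNHG12: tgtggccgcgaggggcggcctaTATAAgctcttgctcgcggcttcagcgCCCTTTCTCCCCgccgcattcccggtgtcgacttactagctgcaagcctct
SNHG7: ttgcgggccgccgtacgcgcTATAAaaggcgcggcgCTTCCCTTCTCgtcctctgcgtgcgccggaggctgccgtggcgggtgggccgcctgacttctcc
SNHG5: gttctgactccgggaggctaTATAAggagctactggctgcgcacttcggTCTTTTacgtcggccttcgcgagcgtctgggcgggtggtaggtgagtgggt
SNHG8: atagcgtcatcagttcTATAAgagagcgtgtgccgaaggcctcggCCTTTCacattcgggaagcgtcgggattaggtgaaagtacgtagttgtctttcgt
ZFAS1: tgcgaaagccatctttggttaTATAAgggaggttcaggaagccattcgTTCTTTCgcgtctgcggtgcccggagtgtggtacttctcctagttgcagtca
SNHG1: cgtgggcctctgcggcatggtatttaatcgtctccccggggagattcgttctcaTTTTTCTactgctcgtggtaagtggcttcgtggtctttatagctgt
SNHG16: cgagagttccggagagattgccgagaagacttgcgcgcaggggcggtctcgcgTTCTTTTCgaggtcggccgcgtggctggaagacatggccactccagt
EPB41L4A-AS1: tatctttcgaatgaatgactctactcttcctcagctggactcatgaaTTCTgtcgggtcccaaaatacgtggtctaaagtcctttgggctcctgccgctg

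TATAA stood in 5 of these 8 windows, those of SNHG5, SNHG7, SNHG8, SNHG12 and ZFAS1. Over 35116 RefSeq promoters the same letters stood at that distance in 4.09% on the strand of the gene and in 1.95% on the other strand, where ZFAS1 also has them. The pyrimidine run was 12 bases in SNHG12, a length reached by 3.43% of promoters, and 11 in SNHG7, reached by 4.49%. It was 8 bases in SNHG16 (reached by 11.2%), 7 in SNHG1 and ZFAS1 (15.4%) and 6 in SNHG5 and SNHG8 (22.2%). EPB41L4A-AS1 had 4 bases, the median of all promoters, and no TATAA. The position of the run differed. With the first transcribed base as 0, the run covered the start in SNHG12 (-1 to 10), ZFAS1 (-2 to 4) and SNHG5 (-1 to 4), and ended on the first base in SNHG8 (-5 to 0) and EPB41L4A-AS1 (-3 to 0). The SNHG7 run (-14 to -4) lay wholly before the start, outside the RefSeq transcript, and those of SNHG1 (4 to 10) and SNHG16 (3 to 10) began inside it. These 3 transcripts thus do not open with the marked run at the RefSeq start. Only the longest run is marked, and a shorter one can cover the start. In SNHG7 and SNHG1 such an unmarked run does so, and the transcripts open with ctct and ctc. The SNHG16 transcript opens with g.

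What the hosts carry in their introns belongs to 2 families, and 1 snoRNA of each is shown with the boxes named here in capitals. SNORD27, in SNHG1 (chr11:62855012-62855083, minus strand), is a box C/D snoRNA that guides methylation, with box C as TGATGA and box D as CTGA. SNORA24, in SNHG8 (chr4:118279190-118279320, plus strand), is a box H/ACA snoRNA that guides pseudouridylation, with the ACA box near its end. Its H box is not marked. The sequences are those of the GENCODE transcripts.
SNORD27: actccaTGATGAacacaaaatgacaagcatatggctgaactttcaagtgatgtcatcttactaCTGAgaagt
SNORA24: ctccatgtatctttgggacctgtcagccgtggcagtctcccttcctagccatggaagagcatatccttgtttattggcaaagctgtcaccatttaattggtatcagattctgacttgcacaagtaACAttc

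Library totals ran from 8928539 counts (R475C replicate 4) to 53779005 (R475C replicate 2). The 10 members together took 0.0760% to 0.123% of the counts of a library. The 6 B-cell markers summed to between 3220 and 4198 CPM (counts scaled to library size with edgeR's TMM factors) in every sample, while 5 T-cell and 5 myeloid markers stayed at or below 1.65 CPM in sum, with CD3D, CD3G and FCGR3A at 0. Of 5 epithelial markers 4 averaged under 1 CPM and EPCAM averaged 26.7 CPM in wild-type and 24.6 CPM in R475C, so that the list summed to between 16.4 and 37.1 CPM in wild-type and 21.2 and 28.9 CPM in R475C. The fibroblast markers summed to between 0.598 and 20.1 CPM in wild-type and 0.155 and 6.51 CPM in R475C. DDX3X itself averaged 932 ± 126 CPM (SD, n = 4) in R475C and 421 ± 70.5 CPM (SD, n = 6) in wild-type, and a change of 1 residue does not make its level a check of the labels. Some samples go together across the genotypes. Wild-type replicates 1 and 4, together with replicates 1 and 3 of R475C, are called the smaller set here, and the other 6 samples, taken as the remainder, the larger set. After removal of each genotype's mean, correlations of log2 CPM over all tested genes between a wild-type and an R475C sample were 0.08 to 0.41 within a set and -0.48 to -0.15 between sets. Between samples of 1 genotype they were 0.35 and 0.39 within the smaller set, but -0.23 to 0.36 within the larger set, with 3 of 7 pairs above 0, so the larger set does not hold together as 1 group within a genotype. Neither the labels nor the headers name these sets, and they were drawn from expression, so comparisons between them are descriptions only.

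The level of a host per length of annotated exon differed widely among the members. On the scale of CPM per kilobase of all annotated exons, the wild-type order was SNHG5 (81.3 ± 25.003), SNHG6 (78.0 ± 15.2), SNHG8 (55.1 ± 17.0), GAS5 (49.9 ± 7.80), ZFAS1 (42.2 ± 9.99), SNHG1 (40.1 ± 10.9), SNHG7 (10.8 ± 0.917), SNHG12 (8.30 ± 1.75), EPB41L4A-AS1 (7.08 ± 1.06) and SNHG16 (6.23 ± 1.68), as mean ± SD of 6 samples. SNHG1, at the end of the first 6, stood well above SNHG7, by far more than the spread of either. For all other neighbours in the order the ranges of mean ± SD overlapped. Annotated exons include retained introns, and the rows of SNHG7, SNHG12 and SNHG16 cover 4345, 4266 and 5362 bases, the longest of the 10.

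None of the 10 hosts passed the test between R475C and wild-type. By the quasi-likelihood test of edgeR, with Benjamini-Hochberg adjustment over all tested genes, 0 members were called higher, against 1.31% of all 17045 genes, and 0 lower, against 1.15% (2.46%, or 419 genes, in either direction). DESeq2 and limma-voom likewise called 0. At an unadjusted p under 0.05, 3 members were higher (GAS5, SNHG7 and SNHG12) and 0 lower, against 8.45% of all genes higher and 8.86% lower. The log2 fold change was above 0 for 9 of the 10, against 50.3% of all genes, and its median over the members was 0.28, against 0.00 over all genes. In no member were the groups free of overlap, which was the case for 6.11% of all genes (3.19% higher and 2.93% lower in R475C). The members share samples and, as shown further on, vary together between samples, so they are not 10 separate observations. On simulated counts of this design the test recovered 24% of genes changed 1.5-fold and 52% of those changed 2-fold, and the members' fold changes lay between 0.969 and 1.38.

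**Figure D1:**
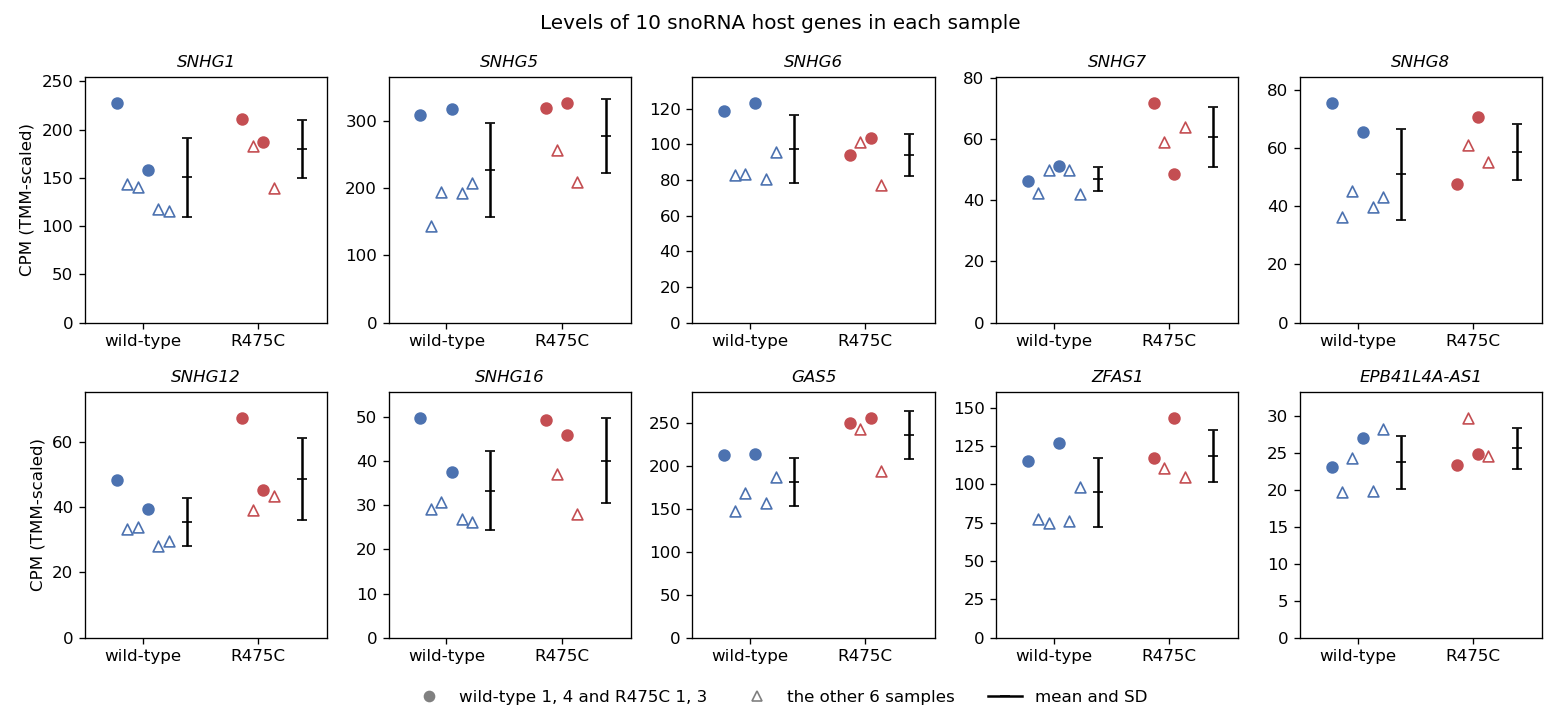
Level of each host (CPM, linear axis from 0) in the 6 wild-type and 4 R475C samples. Filled circles are wild-type 1 and 4 and R475C 1 and 3, open triangles the other 6 samples, and the bars give mean and SD; in every panel the 2 genotypes overlap, and in SNHG5 both wild-type circles (309.8 and 318.3 CPM) lie far above the wild-type triangles.

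GAS5, a host named for its rise in growth-arrested cells, lies at chr1:173863900-173868882 on the minus strand (ENSG00000234741.7, GRCh38). Its level was 147.8 CPM in the lowest wild-type sample, 178 at the median and 214.7 in the highest, and 250.8, 243.6, 255.6 and 194.3 CPM in R475C replicates 1 to 4. R475C replicates 1 to 3 were above every wild-type sample, and replicate 4, the shallowest library, lay inside the wild-type range. The log2 fold change of 0.38 (SE 0.12, 95% interval 0.11 to 0.65; adjusted p = 0.134) did not pass.

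SNHG7, the host of SNORA17A and SNORA17B, lies at chr9:136721366-136728184 on the minus strand (ENSG00000233016.6). It was at 41.9, 48.01 and 51.0 CPM in the lowest, median and highest wild-type samples and at 71.5, 58.9, 48.4 and 63.8 CPM in R475C replicates 1 to 4. Only R475C replicate 3 fell within the wild-type range, which was the narrowest of any of the 10 relative to its mean. The log2 fold change was 0.37 (SE 0.11, 95% interval 0.13 to 0.62; adjusted p = 0.109).

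SNHG12, host of SNORA16A, SNORA44, SNORA61 and SNORD99, lies at chr1:28578538-28583132 on the minus strand (ENSG00000197989.14). Wild-type samples ran from 27.9 CPM through a median of 33.6 to 48.2, and R475C replicates 1 to 4 held 67.2, 39.1, 45.1 and 43.5 CPM. R475C replicate 1 stood above the other 3, which lay within the wild-type range. Its log2 fold change was the largest of the members at 0.46 (SE 0.18, 95% interval 0.07 to 0.85; adjusted p = 0.211), and 0.26 without R475C replicate 1.

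ZFAS1, host of the SNORD12 family, lies at chr20:49278178-49295738 on the plus strand (ENSG00000177410.12). Wild-type samples ran from 74.7 CPM through a median of 87.6 to 127, and R475C replicates 1 to 4 held 117, 110.4, 143 and 104.6 CPM. Wild-type replicates 1 and 4 (115 and 127 CPM) lay within the R475C range. The log2 fold change was 0.33 (SE 0.17, 95% interval -0.03 to 0.69; adjusted p = 0.344).

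SNHG5, the host of SNORD50B and the most abundant member per length, lies at chr6:85660950-85678748 on the minus strand (ENSG00000203875.11). Its wild-type levels spread from 143.9 CPM through a median of 201.6 to 318.3, and R475C replicates 1 to 4 held 319.9, 257.8, 326.8 and 209.3 CPM. The spread inside each genotype was larger than the gap between them (0.29, SE 0.22, 95% interval -0.18 to 0.76; adjusted p = 0.547). Leaving out wild-type replicate 2 gave 0.18.

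SNHG1, which hosts SNORD22, SNORD25, SNORD26, SNORD27, SNORD28 and SNORD30, lies at chr11:62851988-62855914 on the minus strand (ENSG00000255717.6). Its wild-type samples ran from 116 through 142.1 at the median to 227.2 CPM, and R475C replicates 1 to 4 held 211.6, 183.1, 187.5 and 139 CPM. The highest level of all 10 samples was in wild-type replicate 1, and the log2 fold change was 0.26 (SE 0.18, 95% interval -0.14 to 0.66; adjusted p = 0.514). It was 0.41 with that sample left out and 0.17 with R475C replicate 1 left out.

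SNHG16, host of SNORD1A to SNORD1C, lies at chr17:76557766-76565348 on the plus strand (ENSG00000163597.14). It was at 26.1, 30.0 and 49.8 CPM in the lowest, median and highest wild-type samples and at 49.5, 37.2, 46.0 and 28.1 CPM in R475C. As for SNHG1, wild-type replicate 1 was the highest sample (0.27, SE 0.20, 95% interval -0.17 to 0.71; adjusted p = 0.549), and the difference was 0.41 without it and 0.15 without R475C replicate 1.

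SNHG8, the host of SNORA24, lies at chr4:118278709-118279823 on the plus strand (ENSG00000269893.6). Wild-type samples ran from 36.2 through 44.3 at the median to 75.2 CPM, and R475C replicates 1 to 4 held 47.7, 60.8, 70.5 and 55.2 CPM. All 4 R475C samples lay inside the wild-type range (0.20, SE 0.21, 95% interval -0.24 to 0.65; adjusted p = 0.670). Single libraries moved this value, to 0.34 with wild-type replicate 1 left out, to 0.12 with wild-type replicate 2 left out and to 0.10 with R475C replicate 3 left out.

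EPB41L4A-AS1, the host of SNORA13, lies at chr5:112160526-112164276 on the plus strand (ENSG00000224032.6). It was the least abundant member by CPM, at 19.7, 23.6 and 28.2 in the lowest, median and highest wild-type samples and at 23.3, 29.6, 24.8 and 24.5 in R475C. Here wild-type replicate 1 (23.1 CPM) was in the middle of its group (0.11, SE 0.13, 95% interval -0.17 to 0.40; adjusted p = 0.720). The difference was 0.03 without R475C replicate 2, the highest sample, 0.06 with wild-type replicate 2 left out and 0.07 with wild-type replicate 5 left out.

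SNHG6, the host of SNORD87, lies at chr8:66921684-66926398 on the minus strand (ENSG00000245910.8). It was the only member with a log2 fold change below 0, at -0.05 (SE 0.14, 95% interval -0.36 to 0.27; adjusted p = 0.916). Its wild-type samples ran from 80.4 through 89.4 to 122.9 CPM and R475C replicates 1 to 4 held 93.9, 101.6, 103.6 and 77.4 CPM. The sign of this small difference changed to above 0 when wild-type replicate 1 (0.01), wild-type replicate 4 (0.03) or R475C replicate 4 (0.02) was left out.

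Within wild-type, the hosts were high together in replicates 1 and 4. Both of these samples were above wild-type replicates 2, 3, 5 and 6 in 8 of the 10 members, all but SNHG7 and EPB41L4A-AS1, against 14.9% of all tested genes. The ratio of the mean of replicates 1 and 4 to the mean of the other 4 was 1.71 for SNHG8, 1.70 for SNHG5, 1.55 for SNHG16, 1.49 for SNHG1, 1.48 for ZFAS1, 1.41 for SNHG6 and SNHG12, 1.29 for GAS5, 1.09 for EPB41L4A-AS1 and 1.06 for SNHG7. For 8 members, all but SNHG7 and GAS5, this gap inside wild-type was larger than the ratio of the R475C mean to the wild-type mean, which by the fit ran from 0.969 in SNHG6 to 1.38 in SNHG12. In R475C, replicates 1 and 3 were both above replicates 2 and 4 in 6 members, against 22.9% of all genes. Summed over the 10 hosts, wild-type replicates 1 and 4 held 1226 and 1162 CPM and wild-type replicates 2, 3, 5 and 6 held 756.2, 845.9, 788.6 and 874.2 CPM. The R475C sums were 1252, 1122, 1251 and 939.7 CPM in replicates 1 to 4, so the 4 wild-type samples of the larger set were the lowest of all 10. The largest library, R475C replicate 2, lay in the middle of these sums, and mitochondrial reads took 4.32% of counts in both wild-type replicates 1 and 4, within the 3.98% to 5.62% of all samples.

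**Figure D2:**
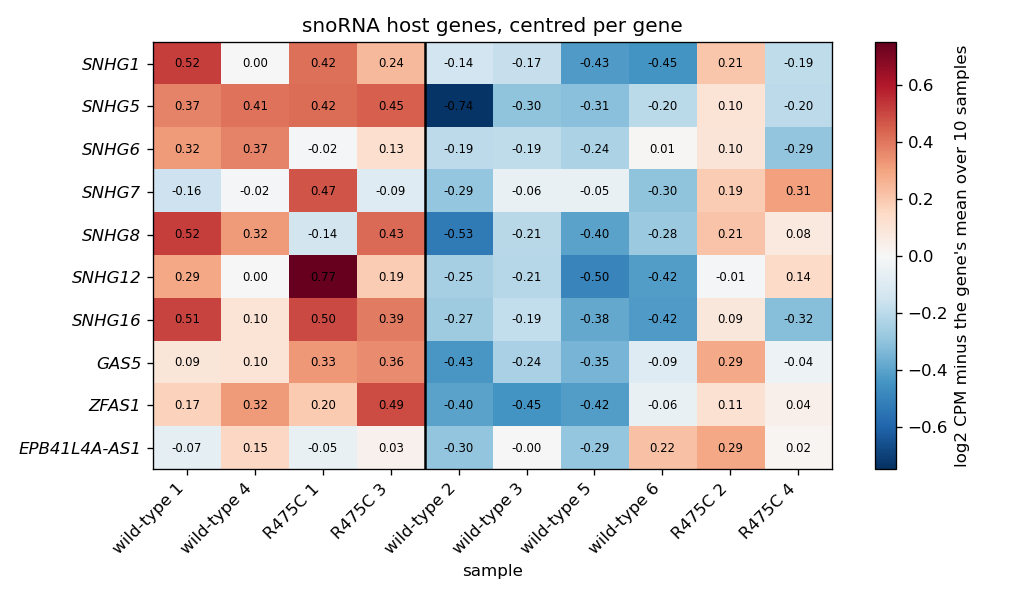
Log2 CPM of each host minus that gene's mean over the 10 samples (colour and printed value), with the 2 sets of samples on either side of the black line. In wild-type 2, 3 and 5 every host is below its mean, and SNHG7 and EPB41L4A-AS1 depart from the pattern of the other hosts.

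The comparison of genotypes was also made inside each set. R475C replicates 2 and 4 were both above wild-type replicates 2, 3, 5 and 6 in 6 members (SNHG5, SNHG7, SNHG8, SNHG12, GAS5 and ZFAS1), against 14.4% of all genes, although in SNHG5 by only 209.3 to 208.6 CPM. R475C replicates 1 and 3 were both above wild-type replicates 1 and 4 in 2 members (SNHG5 and GAS5), against 19.2% of all genes. In SNHG5 this was again a near-tie, 319.9 to 318.3 CPM. Among the 6 samples of the larger set alone the log2 fold changes were above 0 for all 10 members, from 0.07 (SE 0.13) in SNHG6 to 0.50 (SE 0.13) in SNHG8. There edgeR called 0 members (smallest adjusted p = 0.0743), against 461 of all genes, whose median log2 fold change was -0.001. Among the 4 samples of the smaller set the members' values ran from -0.28 (SE 0.15) in SNHG6 to 0.36 (SE 0.21) in SNHG12, and 7 were above 0. By edgeR 0 members were called there (smallest adjusted p = 0.579), against 306 of all genes, whose median log2 fold change was -0.002. SNHG8 lay on either side of 0, at -0.24 (SE 0.20) in the smaller set. The difference between sets was not tested.

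With the 2 sets as a covariate, GAS5 was called higher in R475C (log2 fold change 0.34, SE 0.09; adjusted p = 0.0414 by edgeR), and the other 9 were not. SNHG7 (0.37, SE 0.11) and SNHG12 (0.38, SE 0.12) came closest, with adjusted p = 0.0726 and 0.0779. This fit called 1128 genes in all, against 419 without the covariate, and its sets were drawn from the same expression values. The covariate lowered the log2 fold change of most members, that of GAS5 from 0.38 to 0.34, and the members' median from 0.28 to 0.21. The smaller set makes up a larger share of the R475C samples than of the wild-type samples. GAS5 had adjusted p values between 0.0414 and 0.611 over its 21 alternative fits, and the covariate was the only 1 of these in which it was called.

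**Figure D3:**
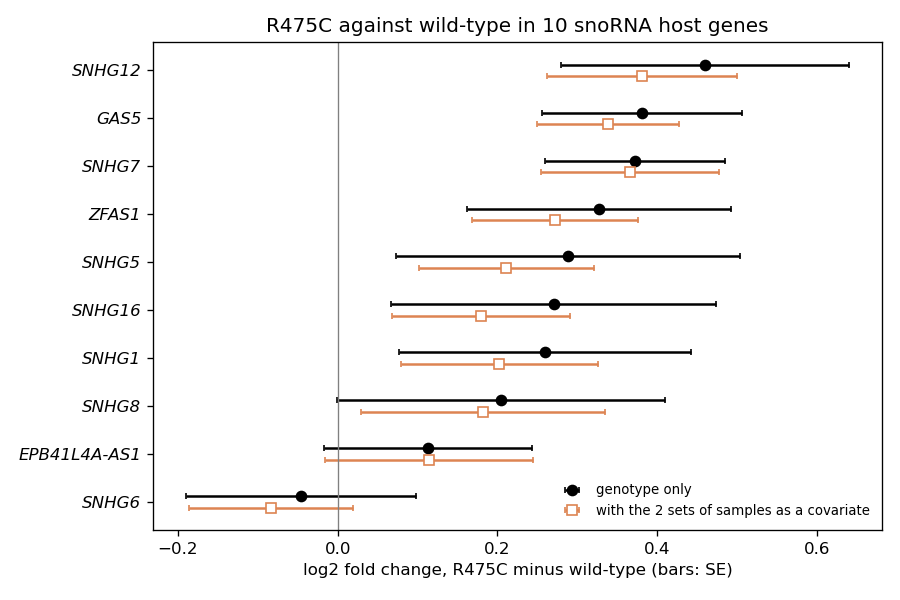
Log2 fold change of each host, R475C minus wild-type, with its SE, from the fit on genotype alone (circles) and with the 2 sets of samples as a covariate (squares). The values run from -0.05 (SNHG6) to 0.46 (SNHG12) by genotype alone. With the covariate the log2 fold change of most hosts is lower and the SE of most hosts is smaller.

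Some member rows can hold reads of a neighbour. No source used here gives the strand setting. Over all genes, 17 antisense genes whose exons lie at least 98% inside exons of a well-counted gene on the other strand had a median read density 1.497 times that of the other gene, and 15 of the 17 had at least 0.5 times. Pairs of genes with identical exons, 9 in all, had identical counts in all 10 samples. A read that overlaps 2 genes, on either strand, was thus counted in both rows where this could be seen. The share of exon length that lies over exons of the other strand was 49.6% in EPB41L4A-AS1, 30.6% in SNHG16, 29.3% in SNHG6, 26.1% in ZFAS1 and 25.2% in SNHG7, at most 1.16% in GAS5 and SNHG12, and 0 in SNHG1, SNHG5 and SNHG8. SNHG16 shares 1639 bases with AC015802.6, an unnamed locus on the other strand whose row had nearly the same log2 fold change (0.31, SE 0.21), and reads in the shared bases, 30.6% of the exon length of SNHG16, cannot be told apart. ZFAS1 shares 249 bases of exon with ZNFX1, the gene of a zinc-finger helicase-like protein that starts 248 bases away on the other strand. ZNFX1 went from 67.2 ± 9.71 CPM (n = 6) to 84.4 ± 7.24 CPM (n = 4), a log2 difference of 0.33 (SE 0.11, adjusted p = 0.147). Some neighbours had values below 0, among them SLC3A2, the heavy chain of amino acid transporters, which starts 188 bases from SNHG1 (-0.28, SE 0.12; adjusted p = 0.255), and TRNAU1AP, a factor of selenocysteine incorporation that overlaps SNHG12 (-0.26, SE 0.15; adjusted p = 0.405). ZBTB37, beside GAS5, differed by 0.48 (log2; SE 0.17, adjusted p = 0.169). None of these neighbours passed the test.

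The snoRNA rows themselves held few reads. Mature snoRNAs lack a poly(A) tail. The member loci contain 26 snoRNA rows at 23 distinct positions, since some positions are annotated more than once. Their counts summed over 10 samples ran from 6 to 690 a row, and 19 rows at 17 positions were tested, with 0 called by edgeR and 0 at an unadjusted p under 0.05. With each position counted once, they came to 9.48% of the host's own count in SNHG12, 4.98% in SNHG1, 2.21% in ZFAS1 and 1.95% in SNHG7. They were at most 1.39% in the other hosts with such a row. The GAS5 locus holds 0 snoRNA rows on its strand in this annotation, so no share can be given for it. SNORD27 averaged 0.751 ± 0.616 CPM (n = 6) in wild-type and 1.32 ± 0.716 CPM (n = 4) in R475C (log2 fold change 0.82, SE 0.58; adjusted p = 0.515), and SNORA24 0.450 ± 0.245 and 0.839 ± 0.599 CPM (0.91, SE 0.51; adjusted p = 0.397). Most snoRNA rows lie within a longer annotated exon of the host, and their reads can come from unspliced host RNA, so they say nothing on mature snoRNA levels.

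Other non-coding hosts held no call either. Of 20 listed, 18 were tested and 0 passed, 4 were higher and 0 lower by unadjusted p (under 0.05), and 13 had a log2 fold change above 0, with a median of 0.24. SNHG15 went from 56.8 ± 7.47 to 70.7 ± 4.36 CPM (0.31, SE 0.10; adjusted p = 0.135) and SNHG19 from 20.05 ± 8.47 to 34.0 ± 3.55 CPM (0.76, SE 0.26; adjusted p = 0.154), for 6 wild-type and 4 R475C samples. SNHG19 resembled the members in its wild-type samples, with 27.3 and 32.9 CPM in replicates 1 and 4 and 12.1 to 20.4 CPM in the others, while SNHG15 was at 53.0 and 49.7 CPM in those replicates and 51.7 to 69.7 CPM in the others. Long non-coding genes outside the host lists and with a mean of at least 20 CPM numbered 254, of which 4 rose and 3 fell, with a median log2 fold change of -0.01 and a middle range (lower to upper quartile) of -0.16 to 0.16. By that measure 8 of the 10 members, all but SNHG6 and EPB41L4A-AS1, were above the upper quartile.

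Protein-coding snoRNA hosts, mostly genes of ribosomal proteins and translation factors, had a median log2 fold change of 0.01, with 20 of 39 above 0 and 0 called. RPL37, a protein of the large ribosomal subunit, had the smallest p (0.38, SE 0.11; adjusted p = 0.0947). EIF4A2, a helicase of translation initiation, went from 688.7 ± 78.3 CPM (n = 6) to 872.6 ± 142.8 CPM (n = 4), a log2 difference of 0.34 (SE 0.12, adjusted p = 0.150). By unadjusted p (under 0.05) 4 of them were higher and 0 lower.

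Of 21 factors of NMD, 1 passed the test, against 2.46% of all tested genes. SMG1, the kinase that phosphorylates the helicase UPF1 to start decay, held 235.4, 193.4, 184.3, 152.7, 207 and 218.7 CPM in the wild-type samples (replicates 1 to 6) and 274.7, 288, 275.1 and 272.3 CPM in R475C replicates 1 to 4. Every R475C sample was above every wild-type sample, which was so for 2 of the 21 factors, against 3.19% of all tested genes. SMG1 rose, with a log2 fold change of 0.48 and an SE of 0.11 (adjusted p = 0.0404). With 1 library left out at a time the call held in 2 of 10 fits, those without wild-type replicate 1 or 4, with adjusted p up to 0.108 in the others, and in 10 of 21 alternatives, while the log2 fold change stayed between 0.42 and 0.55. SMG1 has near-identical pseudogene copies with which it can share reads. Of the whole list 13 were above 0 and 8 below, 4 were higher and 1 lower by unadjusted p, and the median was 0.01.

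Coding transcripts known to be sensitive to decay were looked at beside the hosts. All 16 were tested, 0 were called, 6 had a log2 fold change above 0, and the median was -0.09. GADD45A, a stress-induced gene whose transcript is a main target of NMD, went from 43.6 ± 7.98 CPM (n = 6) to 35.3 ± 1.95 CPM (n = 4), a log2 difference of -0.30 (SE 0.14, adjusted p = 0.281), and ATF4 had -0.26 (SE 0.13; adjusted p = 0.321). By unadjusted p 1 of the list was lower and 0 higher.

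Proteins that bind snoRNAs or assemble their complexes, the exosome and decapping machinery, and regulators of TOP transcripts held 0 calls in 16, 16 and 12 genes. Medians were -0.03, -0.06 and 0.04 on the log2 scale. PIH1D1, an assembly factor of snoRNA-protein complexes, was at -0.37 (SE 0.10, adjusted p = 0.0713), and RUVBL2, an ATPase of the same assembly step, -0.20 (SE 0.08; adjusted p = 0.236). EXOSC8, a core subunit of the exosome, had -0.34 (SE 0.09; adjusted p = 0.0824) and EXOSC3 -0.21 (SE 0.10; adjusted p = 0.336). LARP1, which binds the start of TOP transcripts, had 0.28 (SE 0.08; adjusted p = 0.108) and TSC1, an inhibitor of the growth kinase mTOR, 0.32 (SE 0.10; adjusted p = 0.110). By unadjusted p 2 genes of the first list, PIH1D1 and RUVBL2, were lower and 0 higher. In the exosome and decapping list 1, EXOSC8, was lower and 0 higher, and 3 TOP regulators were higher and 1 lower.

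**Figure D4:**
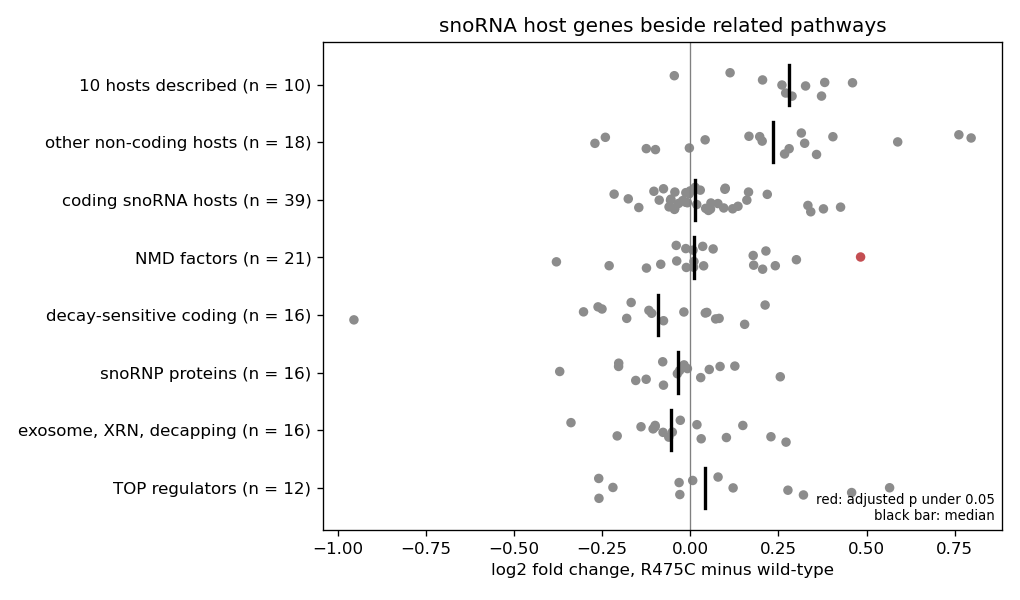
Log2 fold change of each tested gene, R475C minus wild-type (points), by list, with the median as a black bar and genes past the test in red. The medians of the 10 hosts (0.28) and of the other non-coding hosts (0.24) lie to the right of the rest, and SMG1 is the only red point.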

How the data were processed

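Counts of reads per gene in 10 samples were deposited by the authors as 1 table of whole numbers, not normalized. The submitters' processing notes name cutadapt 1.10, STAR 2.6.0c and featureCounts. No source used here gives the build, the annotation or the strand setting. All 58721 gene IDs occur in GENCODE release 29 (GRCh38), the source of names, exons and coordinates. The 10 samples were grouped by the genotype in their titles. Genes were tested with edgeR 4.0.16 in R 4.3.3 (filterByExpr minimum count 10, minimum total 15, TMM, glmQLFit and glmQLFTest on genotype, two-sided), with Benjamini-Hochberg adjustment over the 17045 genes kept and a threshold of 0.05; each SE is the absolute log2 fold change over the square root of F. Log2 CPM used a prior count of 1. In the 21 within-group pairs of samples the chi-square of counts per gene was 11.2 to 91.7, so no pair agreed within sampling noise. On simulated counts the test recovered 94% of genes changed 4-fold, and 12 of 146 calls were genes left unchanged. DESeq2 1.42.0, limma 3.58.1 (voom), other scalings and filters, the replicate number as a block, the 2 sets of samples, and leaving out each sample were alternatives. The members, lists, tests and alternatives were chosen with earlier results of these data known. The text names every member, the 2 genes with the smallest p of each list or those past the test, genes that overlap or start nearest to a member, and the 5 genes with a mean of at least 10 CPM closest to the members' mean profile; SNHG19's per-sample values, SNORD27 and SNORA24 were picked after their values were seen.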

Additional observations from a re-analysis of the deposited data

How the results depend on the processing

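Over the 21 alternatives to the fit on genotype alone, 7 members (SNHG1, SNHG5, SNHG7, SNHG12, SNHG16, GAS5 and ZFAS1) kept a log2 fold change above 0. The number of members called was 0 higher and 0 lower in each, except 1 higher (GAS5) with the 2 sets of samples as a covariate. In wild-type 1 and 4 and R475C 1 and 3 alone SNHG8 (-0.24) and EPB41L4A-AS1 (-0.046) reversed. SNHG6 was at 0.071 in the other 6 samples alone and between -0.095 and 0.032 with 1 sample left out. The members' median was between 0.21 and 0.38 with 1 sample left out, and 0.09 and 0.37 in the 2 sets alone. It was 0.21 with the 2 sets as a covariate and 0.20 with the replicate block. Genes called numbered 1150 by DESeq2, 1128 with the 2 sets as a covariate, 0 with the replicate block, and from 142 (without R475C replicate 3) to 794 (without wild-type replicate 1) with 1 sample left out; the cause was not tested. The replicate numbers do not pair the samples: same-numbered samples of the 2 genotypes had correlations of 0.34, 0.16, -0.27 and -0.21 after removal of group means, and 0 of wild-type 1 to 4 correlated best with its own number. SMG1 lost its call with no low-count filter (adjusted p = 0.0508), with the replicate block (0.208) and in wild-type 1 and 4 and R475C 1 and 3 alone (0.340).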

Other observations

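The 5 tested genes outside the member list whose profile over the 10 samples lay closest to the mean profile of the hosts were ZNF721, PYROXD1, GGNBP2, LMO7 and LHFPL2, out of 9916 candidates. Their centred log2 CPM differed from that mean profile by 0.05 to 0.08 on average, less than that of the median host itself (0.14). ZNF721, a zinc-finger gene, held 74.3 CPM in wild-type replicate 1, 58.5 in replicate 4, 44.2 to 49.5 CPM in the other wild-type samples and 59.3 to 69.7 CPM in R475C (log2 fold change 0.29, SE 0.14; adjusted p = 0.310 by edgeR). LMO7 had 0.38 (SE 0.11; adjusted p = 0.0961), and none of the 5 passed.

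ZFAS1 contains short annotated RNA rows inside its exons, and 1 of them had a larger difference than the host. RF02216, of 93 bases, was at 5.68 to 21.2 CPM in wild-type replicates 1 to 4, 3.97 and 7.77 CPM in replicates 5 and 6, and 12.4, 27.3, 33.5 and 11.04 CPM in R475C replicates 1 to 4. The log2 fold change of 1.122 (SE 0.44; adjusted p = 0.209) did not pass, and RF02217, further along the gene, had 0.19 (SE 0.20; adjusted p = 0.684). Reads in these rows are part of the ZFAS1 count as well.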
